A study of Bos taurus with 5 samples.

Results

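Annexins are proteins that bind negatively charged membrane lipids, above all phosphatidylserine, when calcium rises. Each has a conserved calcium-binding core and a variable amino-terminal end that sets its partners, several of which are S100 proteins. They are known for sealing torn plasma membranes, for linking membranes to the actin cytoskeleton, for vesicle traffic and, in the case of ANXA1, for damping inflammation. Their levels are described here in RNA sequencing libraries from cattle. The family was given as 9 gene names, and entries were taken where the name matched exactly. Of the 9 names, 8 matched 1 entry each, among 27607 genes in all. ANXA8 matched no entry name and is not analysed here. ANXA8L1, for which RefSeq gives ANXA8 as a synonym, is reported beside the family and is not counted in it.

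The 5 libraries came from Bos taurus and are called brain, skin, lung, heart and limb after their tissue labels, with 1 library per label. They were made from total RNA of cells lysed and pre-amplified with a Fluidigm C1-HT chip protocol. The sources used here do not give breed, age, sex, treatment or the number of animals or cells behind a library. There were no replicates, so each value is n = 1 with no error, no p-value is given, and no difference can be set against a spread between replicates. Levels were taken to be FPKM, a fragment count scaled to transcript length and to the total of mapped fragments. The unit was inferred by elimination and is not certain. Comparisons between genes within a library rest on it and on the scaling to length, which was not tested for these libraries.

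The libraries summed to between 1072430 and 1172798 FPKM and had between 4868 (skin label) and 6394 (heart label) genes at 1 FPKM or more. Read depth is unknown, since the table gives no read totals. The labels were checked against lists of 10 marker names per cell type. All 10 neuron markers were listed at 0 in brain, 2 keratinocyte markers were above 0 in skin, 1 alveolar marker in lung, 2 cardiomyocyte markers in heart and 2 skeletal muscle markers in limb. Defining genes such as SNAP25, KRT14, SFTPB, TNNT2 and MYOD1 were at 0 in all 5 libraries. The labels are therefore used as names of libraries and not as tissues. All 10 macrophage and neutrophil markers and all 10 lymphocyte markers were at 0 in every library, while 5 or 6 of 10 fibroblast markers were above 0, with VIM at 1011 to 2251 FPKM and DCN, LUM, PDGFRB and THY1 at 0. Of 10 epithelium markers 1 or 2 were above 0, SPINT2 at 50.2 to 145 FPKM in all 5 libraries and CDH1 at 13.8 to 55.7 in skin, lung and heart. The only endothelium marker above 0 was FLT1, in brain and lung, and the only erythroid one HBA, in lung. KRT5 was above 0 only in lung, at 51.0 FPKM, and SFTPC only in limb, at 34.2.

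The annexin transcripts were dominated by ANXA2 in all 5 libraries, followed in each of them by ANXA1. ANXA1, ANXA2, ANXA3 and ANXA5 were the 4 most abundant members everywhere and made up 96.6% to 99.9% of the annexin sum. By their means over the libraries ANXA4 came next, at 133 FPKM, and ANXA6, ANXA7 and ANXA11 were low, at 21.5, 21.5 and 6.75 FPKM. ANXA4 did not come next in lung, where ANXA6 was above it, or in skin, where it was at 0. The order of ANXA6, ANXA7 and ANXA11 also differed between libraries. The 8 members summed to 10433 FPKM in brain, 10973 in skin, 9819 in lung, 15039 in heart and 9855 in limb. As a share of all FPKM this was 0.973%, 0.94%, 0.837%, 1.36% and 0.875% in the same order. The heart library had the highest annexin share and the lung library the lowest. In such libraries fewer cells of a type and less RNA per cell cannot be told apart. All 8 members were above 0 in the brain and limb libraries, 7 in heart and 6 in the skin and lung libraries.

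**Figure D1:**
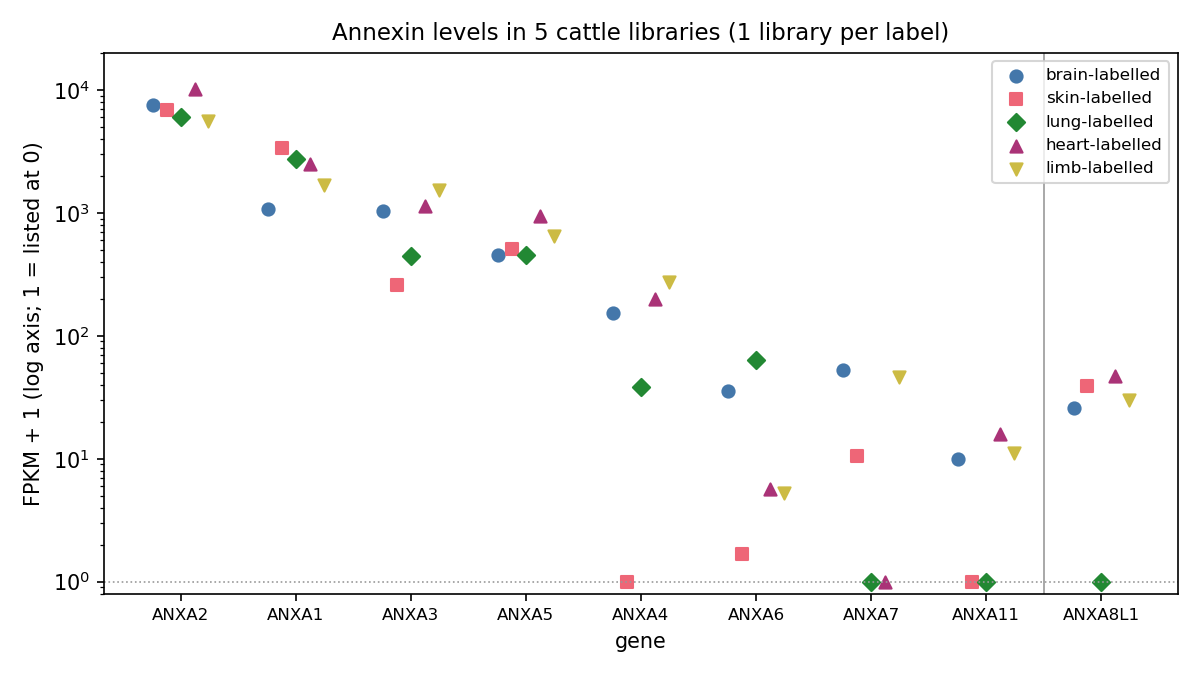
Level of each annexin in each library, as FPKM + 1 on a log axis (1 means listed at 0), with 1 point per library and ANXA8L1 set apart at the right. The points of ANXA2 lie between 5644 and 10247 FPKM, while ANXA4, ANXA7 and ANXA11 each have libraries at 0.

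ANXA2, which joins with S100A10 in a complex that bridges membranes and actin and binds plasminogen at the cell surface, was among the most abundant transcripts of the whole table. It (ENSBTAG00000009615) stood at 7615 FPKM in brain, 6811 in skin, 6058 in lung, 10247 in heart and 5644 in limb. The heart library was highest, at 1.35 times the brain value, and the brain value was in turn 1.35 times the limb one, the lowest. The highest value was 1.82 times the lowest, and neighbouring values in the order differed by a factor of 1.07 to 1.35. ANXA2 ranked between 10th (heart label) and 23rd (limb label) of all genes. It made up between 57.3% (limb label) and 73.0% (brain label) of the annexin sum. Its range of 0.86 on the scale of log2(FPKM + 1) was at least as wide as that of 24.7% of the 497 genes whose mean reached 400 FPKM, a limit chosen after the values were seen.

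ANXA1, a glucocorticoid-induced protein that acts on formyl peptide receptors and limits phospholipase A2 activity, had an order of its own. It (ENSBTAG00000015978) stood at 1068 FPKM in brain, 3385 in skin, 2763 in lung, 2498 in heart and 1694 in limb. The skin library was highest, the brain lowest, and the ratio between them was 3.17. The range of ANXA1, 1.66 on the scale of log2(FPKM + 1), was at least as wide as that of 73% of the 497 abundant genes. ANXA1 held 30.8% and 28.1% of the annexin sum in the skin and lung libraries, 16.6% and 17.2% in the heart and limb, and 10.2% in brain. The ratio of ANXA2 to ANXA1 was therefore 7.13 in brain and 2.01 in skin, with 2.19, 4.10 and 3.33 in the lung, heart and limb libraries.

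ANXA3, found on neutrophil granules in humans and less well understood in other cells, showed nearly the opposite order. It (ENSBTAG00000010153) stood at 1043 FPKM in brain, 259.7 in skin, 447 in lung, 1136 in heart and 1528 in limb. The skin and lung libraries were both below the other 3. The limb value was 5.88 times the skin one, the widest ratio among the 4 abundant members. The range of ANXA3, 2.55 on the scale of log2(FPKM + 1), was at least as wide as that of 88.7% of the 497 abundant genes. ANXA1 and ANXA3 were nearly level in the brain and limb libraries, with ratios of ANXA1 to ANXA3 of 1.02 and 1.11, and far apart in the skin and lung libraries, with ratios of 13.0 and 6.18. In the heart library the ratio was 2.20. ANXA3 exceeded ANXA5 in the brain, heart and limb libraries and was below it in the other 2.

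ANXA5, which forms ordered arrays on exposed phosphatidylserine and is used as a reagent for dying cells, was present in all 5 libraries. It (ENSBTAG00000021746) stood at 457 FPKM in brain, 508 in skin, 449 in lung, 939 in heart and 654 in limb. The heart library was highest, as for ANXA2, and from skin to brain to lung the values differed by factors of 1.11 and 1.02. The highest value was 2.09 times the lowest, and its range of 1.06 on the scale of log2(FPKM + 1) was at least as wide as that of 40.6% of the 497 genes with a mean of 400 FPKM or more. ANXA5 took 4.38% to 6.63% of the annexin sum.

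**Figure D2:**
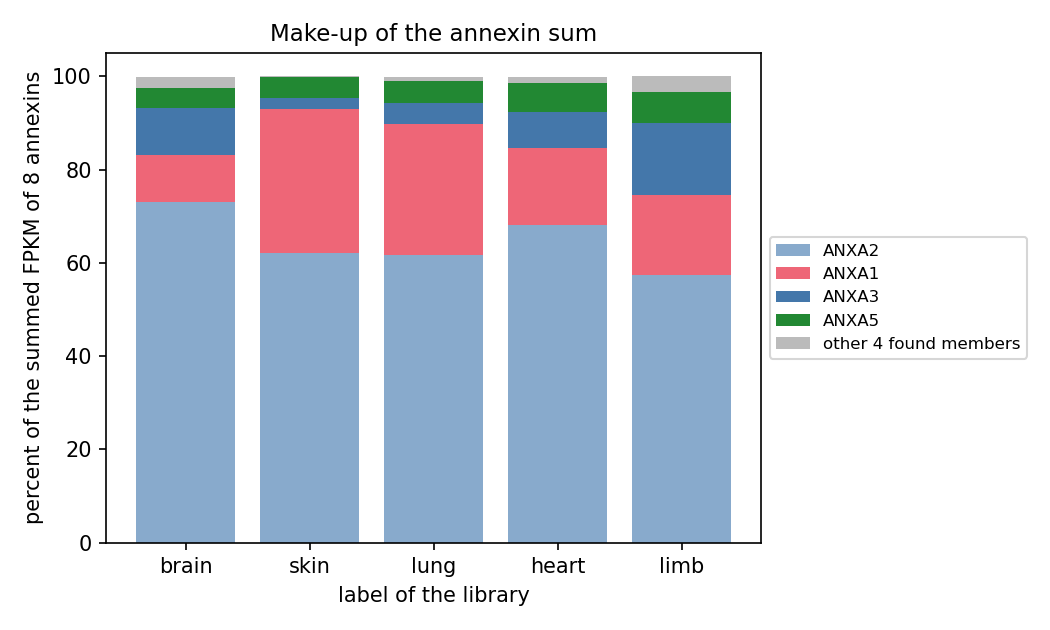
Percent of the summed FPKM of the 8 annexins taken by each of the 4 abundant members and by the other 4 together (grey), with 1 bar per library. ANXA2 takes 57.3% to 73.0%, ANXA1 is at 30.8% in skin and 10.2% in brain, and ANXA3 is at 2.37% in skin and 15.5% in limb.

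**Figure D3:**
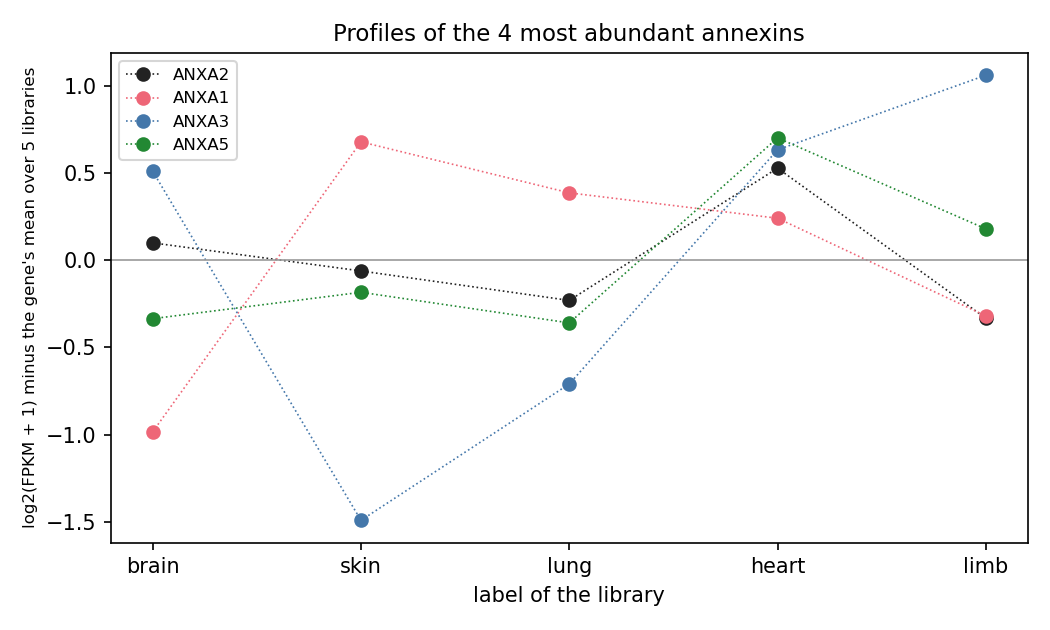
Difference of log2(FPKM + 1) from the gene's own mean over the 5 libraries for ANXA1, ANXA2, ANXA3 and ANXA5, with 1 point per library and dotted lines only as guides, since the labels have no order. ANXA1 is highest and ANXA3 lowest in skin, where ANXA2 and ANXA5 lie near their means.

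ANXA4, a membrane-binding annexin known mainly from secretory epithelia, had the widest range of the family on the scale of log2(FPKM + 1). It (ENSBTAG00000001105) stood at 153 FPKM in brain, 0 in skin, 37.5 in lung, 199.7 in heart and 275 in limb. The brain, heart and limb values lay together, the lung value was lower, and the skin library listed none. Genes at this level were seldom at 0 there: of 1054 genes whose median in the other 4 libraries was 100 to 1000 FPKM, 52 (4.93%) were at 0 in skin. ANXA4 was the one member that met the rule for a depleted gene, with the lowest of the other 4 values at 10 FPKM or more and, after adding 1, at least 4 times its own. In that library 12.7% of the 2147 genes that could meet the rule did so, against 1 of the 5 annexins that could, so the count itself is no result about the family. With a minimum of 50 FPKM the call was lost, because the lung value is below it.

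ANXA6, which has a duplicated core and acts in cholesterol and endosome traffic, was low and uneven. It (ENSBTAG00000014809) stood at 34.8 FPKM in brain, 0.68 in skin, 63.0 in lung, 4.68 in heart and 4.31 in limb. The brain and lung libraries were high and the other 3 low. The skin value was below 1.10 FPKM, the level under which the lowest 5% of the values above 0 in that library lay.

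ANXA7 (synexin), first known for aggregating secretory granules, was seen in 3 libraries. It (ENSBTAG00000020218) stood at 52.1 FPKM in brain, 9.58 in skin and 45.6 in limb and was listed at 0 in the lung and heart libraries. The brain and limb values were close and the skin one lower. Among genes with a median of 10 to 100 FPKM in the other 4 libraries, 23.1% of 2749 were at 0 in lung and 15.5% of 2766 in heart.

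ANXA11, whose long amino-terminal end binds the calcium sensor PDCD6 and which tethers RNA granules to lysosomes, was the lowest member by its mean, 6.75 FPKM. It (ENSBTAG00000020940) stood at 8.87 FPKM in brain, 14.8 in heart and 10.1 in limb and was listed at 0 in the skin and lung libraries. Its 3 values above 0 were close to each other. At a median of 1 to 10 FPKM in the other 4 libraries, 59.0% of 2175 genes were at 0 in skin and 45.5% of 2079 in lung, so an absence at this level was common and a level below what these libraries could show was not detectable.

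ANXA8L1 (ENSBTAG00000018499) stood at 24.9 FPKM in brain, 37.9 in skin, 46.5 in heart and 29.1 in limb and was listed at 0 in lung. Its 4 values above 0 were close to each other, and it met the rule for a depleted gene in lung. In humans ANXA8 and ANXA8L1 are near-identical copies. No entry here was named ANXA8, and whether reads were shared with a further copy in cattle was not tested. ANXA9, ANXA10 and both entries named ANXA13, annexins of restricted tissues, were listed at 0 in all 5 libraries.

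No annexin was enriched in a single library, meaning at 10 FPKM or more with a value, after adding 1, at least 4 times the highest of the other 4. Of all genes at 10 FPKM or more, 7.45% were so called in brain, 8.84% in skin, 10.2% in lung, 8.17% in heart and 7.99% in limb, where 7, 4, 6, 6 and 7 annexins could have been. The count depended on the reference. Against the mean of the other 4 it was 1 (ANXA6 in lung). With brain left out of the reference it was 2 (ANXA6 in lung and ANXA7 in limb), with lung left out 1 (ANXA6 in brain) and with limb left out 1 (ANXA7 in brain). For depletion, 0 of 4 annexins were called in each of the brain, lung, heart and limb libraries, against 2.76%, 9.19%, 4.27% and 11.2% of the genes that could be. Against the mean of the other 4 the calls went from 1 to 7, from 3 members: ANXA4 in skin and lung, ANXA6 in skin, heart and limb, and ANXA7 in lung and heart. With skin left out of the reference ANXA4 was also called in lung, and with lung left out ANXA3 was also called in skin, which makes 2 calls in all each time.

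At a ratio of 4, differences between pairs of libraries came from the less abundant annexins and from ANXA3. Over the 10 pairs, a member reached 10 FPKM in the higher library in 71 combinations of gene and pair, and in 26 of them the ratio after adding 1 was at least 4 (36.6%). For all genes the share was 48.1% of 56076 combinations. With a pseudocount of 10 the annexins had 16 calls (22.5%) and all genes 21.4%, and with a minimum of 50 FPKM the annexins had 15 calls (26.3%) and all genes 31.7%, so the annexin share was not below that of all genes under each setting. At a ratio of at least 2 the annexins had 34 of 71 (47.9%) and all genes 66.6%. The calls came from ANXA4 in 7 of 10 pairs, ANXA6 and ANXA7 in 6 of 7 each, ANXA11 in 4 of 7 and ANXA3 in 3 of 10, while ANXA1, ANXA2 and ANXA5 had none at a ratio of 4. At a ratio of 2, ANXA1 was called in 3 pairs, each with the brain library as the lower one, and ANXA5 in 2, each with the heart library as the higher one. ANXA2 was called in 0 of 10 pairs at either ratio.

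The level matters for such counts, so the abundant members were also set beside abundant genes, with the same limit of 400 FPKM. Among 497 genes whose mean reached 400 FPKM, 5.59% of 4970 combinations reached a ratio of 4 and 22.3% a ratio of 2. ANXA1, ANXA2, ANXA3 and ANXA5 reached them in 3 and 11 of 40. The median range of these 4 was 1.36 on the scale of log2(FPKM + 1), against 1.21 for the 497 genes.

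Of the 26 calls at a ratio of 4, 13 had skin as the lower library. In its 4 pairs the skin library was the lower one in 13 of 26 combinations and the higher one in 0, against 29.9% and 21.5% for all genes. The 0 rests on the minimum of 10 FPKM: ANXA7, at 9.58 FPKM in skin, had a ratio of 10.6 over lung and over heart, and with a minimum of 1 FPKM the skin library was the higher one in these 2 combinations and the calls over all pairs numbered 30 of 78 (38.5%), against 49.3% for all genes. ANXA4 was lower there in all 4 pairs, ANXA3 in 3, and ANXA6, ANXA7 and ANXA11 in 2 each. The brain library was the higher one in 9 of 30 combinations and the lower one in 0, against 26.1% and 18.5%. The limb library was the higher one in 8 of 30 and the lower one in 2, against 21.2% and 28.3%. The lung library was the higher one in 4 of 28 and the lower one in 7, against 26.0% and 23.7%, and the heart library in 5 and 4 of 28, against 25.3% and 20.1%. The pairs of a library share its values, so these counts are not independent. The calls of ANXA3 between brain and skin and of ANXA4 between brain and lung stood at a ratio of 4.0, at the threshold itself.

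**Figure D4:**
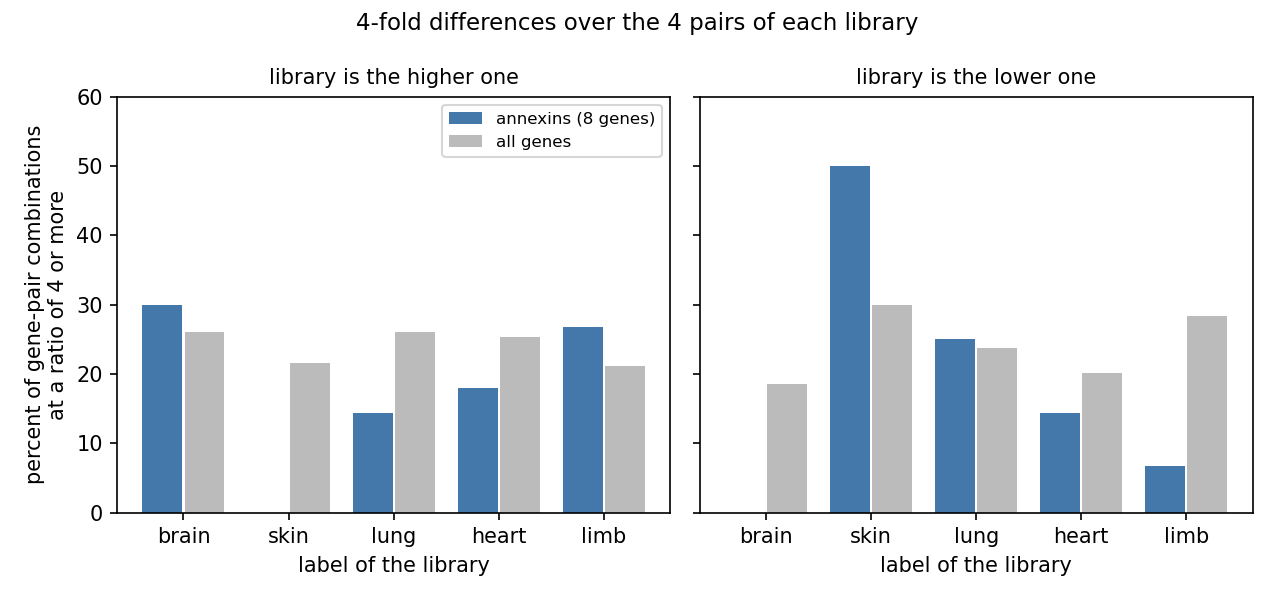
Percent of combinations of gene and library pair with a ratio of at least 4 after adding 1, with the named library as the higher one (left) or the lower one (right), for the 8 annexins (blue) and all genes (grey). The skin library is the lower one in 50% of annexin combinations and the higher one in 0, where ANXA7 at 9.58 FPKM is left out by the minimum of 10 FPKM, and the brain library is the lower one in 0.

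The skin and lung libraries were both below the other 3 for ANXA3, ANXA4 and ANXA11, 3 of 8 members, and both above them for ANXA1. Among 7497 genes at 10 FPKM or more in at least 1 library, 9.84% were lower and 11.2% higher in both. This grouping was chosen with earlier results known and has no test. The same libraries carried the proliferation genes UBE2C, at 372 and 290.2 FPKM against 0 to 1.13 in the other 3, CCNB1, at 123 and 284 FPKM against 0, and BIRC5, at 227 and 102 FPKM against 0. The 10 fibroblast markers summed to 2390 and 1110 FPKM in skin and lung and to 1834 to 3278 FPKM in the other 3, most of it VIM. Among them COL1A2 was at 19.7 and 6.0 FPKM in skin and lung against 174 to 523, COL1A1 at 11.4 and 37.2 against 74.4 to 191 and FN1 at 34.1 and 20.9 against 106 to 262, while DCN, LUM, PDGFRB and THY1 were at 0. The remaining markers had other orders. COL3A1 was at 72.6 FPKM in skin and 33.5 in lung against 67.6 to 72.5. VIM was at 2251 FPKM in skin and 1011 in lung against 1399 to 2230. PDGFRA was above 0 only in skin and lung, at 0.57 and 1.57 FPKM. Genes at 1 FPKM or more numbered 4868 and 5707 in skin and lung against 5075 to 6394. The part of these in the annexin values was not tested.

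S100 proteins bind the amino-terminal ends of several annexins, and 6 of 7 such names matched an entry. S100A10, the partner of ANXA2, stood at 224 FPKM in brain, 1575 in skin, 513 in lung, 1271 in heart and 448 in limb. It was below ANXA2 in all 5, and the ratio of ANXA2 to S100A10 went from 4.32 in skin to 34 in brain. The range of S100A10 was 2.81 on the scale of log2(FPKM + 1), against 0.86 for ANXA2. S100A11, a partner of ANXA1, stood at 6742, 5775, 3796, 9789 and 9206 FPKM in the brain, skin, lung, heart and limb libraries. It exceeded ANXA1 in all 5, at 1.37 times its level in lung and 6.31 times in brain. Such ratios between genes rest on the scaling to transcript length, which was not tested for these libraries. S100A4, which binds ANXA2, was at 1492 to 4519 FPKM and S100B, which binds ANXA6, was at 201 FPKM in heart and 30.8 in skin and 0 in the other 3. S100B met the rule for enrichment in heart, where ANXA6 was at 4.68 FPKM. S100A1 and S100A12 were at 0 in all 5.

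**Figure D5:**
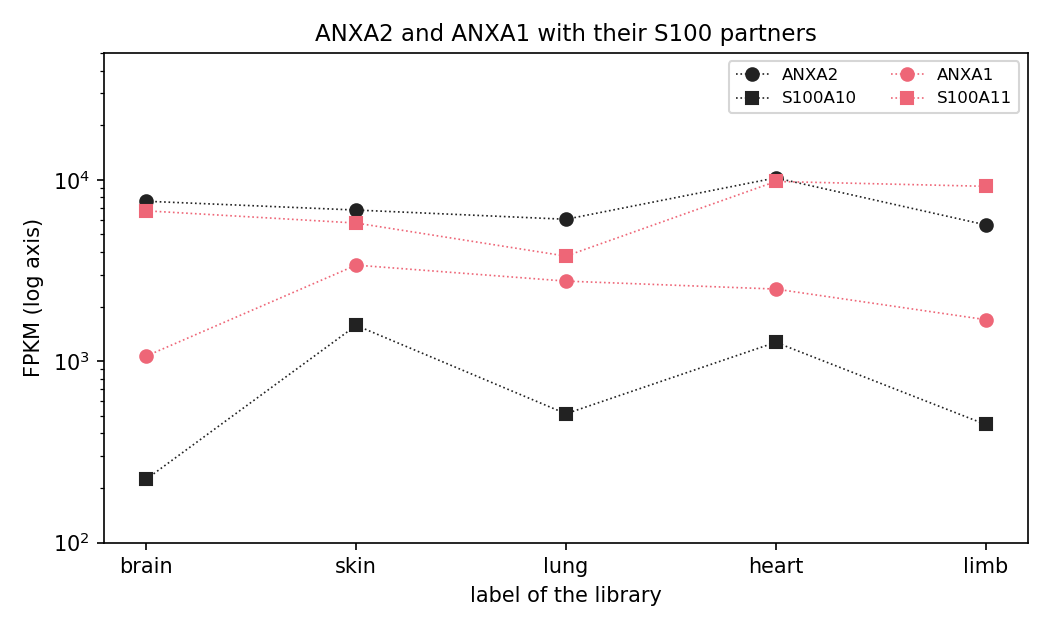
Level in FPKM on a log axis of ANXA2 and S100A10 (black) and of ANXA1 and S100A11 (red), circles for annexins and squares for S100 genes, with 1 point per library and dotted lines only as guides. S100A10 lies below ANXA2 in all 5 libraries and S100A11 above ANXA1 in all 5. The order between genes rests on the scaling to transcript length, which was not tested.

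Other genes of annexin pathways were counted from lists chosen with earlier results known. Of the plasminogen system, which ANXA2 helps to assemble on the cell surface, 7 of 9 entries were above 0 in at least 1 library, with PLG itself at 0. The glycolytic enzyme ENO1, which also binds plasminogen at the surface, was at 1656 to 2228 FPKM, the activator PLAT at 65.8 to 365 FPKM and the plasminogen receptor PLGRKT at 107 to 243 FPKM. The urokinase receptor PLAUR was enriched in heart at 301 FPKM. For ANXA1, 3 of 7 names on a list of receptors and phospholipases matched an entry. They were PLA2G4A, PLA2G6 and PLAA, so no receptor was matched and receptor levels are not known here. Only PLAA was above 0, at 0.50 FPKM in skin. PLA2G4A, the cytosolic phospholipase that ANXA1 restrains, was at 0 in all 5.

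Membrane repair genes, which act with annexins at wounds, were above 0 for 14 of 17 entries, and 7 were above 0 in all 5 libraries. Caveolin CAV1 was at 126 to 370 FPKM, the calpain small subunit CAPNS1 at 82.1 to 184 FPKM and the ESCRT gene TSG101 at 60.3 to 211 FPKM, whereas DYSF, TRIM72 and SYT7 were at 0. By the rules of size, the calcium-activated protease CAPN1 was enriched in skin and AHNAK, a large scaffold that binds ANXA2 with S100A10, in heart, at 11.2 and 27.1 FPKM. The related CAPN2 was depleted in lung, at 3.29 FPKM. Of 11 entries for phosphatidylserine synthesis and exposure, 7 were above 0 somewhere and 0 in all 5 libraries. TMEM30A, the shared subunit of lipid flippases, was at 55.8 FPKM in brain and PTDSS1, a phosphatidylserine synthase, at 39.0 in lung.

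All 8 genes listed for penta-EF-hand calcium sensors and other proteins that act with ANXA7 or ANXA11 were above 0 in at least 1 library. Sorcin (SRI), which binds ANXA7, stood at 262 to 1115 FPKM. It was highest in lung and lowest in heart, and ANXA7 was at 0 in both. PDCD6, which binds both, was at 34.7 to 245 FPKM, and the stress granule gene G3BP1 at 86.8 to 377 FPKM. The calcium sensor PEF1 was enriched in limb at 73.1 FPKM, the related GCA depleted there at 0, and the RNA-binding gene CAPRIN1 depleted in heart at 1.30 FPKM. Of 10 other phospholipid-binding genes 7 were above 0 somewhere, led by the copine CPNE2 at 24.8 to 109 FPKM. MFGE8, which bridges phosphatidylserine to integrins, was depleted in skin at 0, and SYTL2, a vesicle tethering protein, in lung at 0. The median range on the scale of log2(FPKM + 1) was taken over the genes of each list whose mean reached 10 FPKM. It was 2.2 for the S100 partners, 2.46 for the plasminogen list, 4.54 for membrane repair and 5.40 for phosphatidylserine. For the partners of ANXA7 or ANXA11 it was 4.83 and for the other phospholipid-binding genes 5.33. The 7 annexins had 2.55 and all 5010 genes with such a mean 4.91. Levels were not matched here, and 4 of the 7 annexins had a mean of at least 400 FPKM. At that limit the annexin median was 1.36, against 1.21 for the 497 genes.

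The genes most like each annexin were sought by the mean absolute difference in log2(FPKM + 1) after centring each gene, over 5 libraries and 4628 named genes whose mean reached 10 FPKM. For ANXA2 these were PRDX6 (a difference of 0.033), RTN3 (0.087) and LAMTOR4 (0.092), against a median of 1.45 over all candidates. For ANXA3 they were DSTN (0.033), TSPAN31 (0.168) and ATF4 (0.179), with DSTN at 3751, 910.2, 1623, 3928 and 5151 FPKM in the brain, skin, lung, heart and limb libraries. For ANXA1 they were IER3IP1 (0.089), AAMP (0.107) and COX8A (0.132), and for ANXA5 TMSB10 (0.136), PPOX (0.144) and S100A2 (0.158). For ANXA4 they were HAX1 (0.271), XAF1 (0.274) and POLR1H (0.368), all likewise at 0 in skin. For ANXA6 they were UTP15 (0.303), ETF1 (0.380) and MPDU1 (0.401), and for ANXA7 ZNF277 (0.383), TEAD2 (0.398) and ELP2 (0.519). With 5 libraries and 4628 candidates, near matches are found for many genes. Within the family ANXA2 and ANXA5 were the closest, at 0.274, and ANXA6 and ANXA7 the farthest apart, at 3.06.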

How the data were processed

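The authors deposited 1 table of gene values for the 5 libraries. Per the submitters' processing notes, bcl2fastq, STAR and RSEM were used with ARS-UCD1.2; their versions and the annotation release are not stated there. The deposited values were taken as FPKM by elimination, since they are not whole numbers and their totals differ between libraries and exceed that of TPM. These points do not set FPKM apart from estimated counts, which need not be whole numbers, so the unit is not certain. No read totals were used, and the spacing of low values gave no depth that stood clear of other offsets, so depth is unknown and no counting interval is given. Members were matched by exact name with Python 3.11.15, pandas 2.3.3 and numpy 2.4.6. Differences were called by size alone, with a minimum of 10 FPKM and a 4-fold (or 2-fold) ratio after adding 1 to each value, which understates ratios of low genes, and were counted over all genes that could be called. The rules were tested on simulated data with small noise, set changes and no zeros in single libraries. That shows only that the rules work as written, not how calls behave in these libraries. All 8 annexins are named, with, from each list, the genes of highest mean or called (2 of them are not reported here) and, for each annexin with a mean of at least 10 FPKM, the 3 most similar genes. Members, lists and rules were chosen with earlier results of these data known. Alternatives were other pseudocounts, minimums, ratios, references and scalings. RefSeq (ARS-UCD2.0) was used for names and gene order only. No protein or gene sequence was used here.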

Additional observations from a re-analysis of the deposited data

How the results depend on the processing

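The highest and lowest library of each annexin, as first found, kept their direction under all 6 pseudocounts and scalings tried. This says little, because adding the same number to both values cannot reverse them. The scalings also moved the narrowest range, that of ANXA2, only from 0.86 to between 0.89 and 0.98 on the log2 scale. ANXA11 fell below a ratio of 4 with a pseudocount of 10 (1.31 on the log2 scale). Calls of members enriched in 1 library, 0 as reported, numbered 1 against the mean of the other 4 (ANXA6, lung label), 2 without the brain library in the reference (ANXA6, lung label; ANXA7, limb label), 1 without the lung library (ANXA6, brain label) and 1 without the limb library (ANXA7, brain label). Calls of members depleted in 1 library, 1 as reported, numbered 0 with a minimum of 50 FPKM, 7 (from 3 members) against the mean of the other 4, 2 without the skin library (ANXA4 also in the lung label) and 2 without the lung library (ANXA3 also in the skin label). The 26 differences between pairs numbered 16 with a pseudocount of 10, 15 with a minimum of 50 FPKM, 30 with a minimum of 1 FPKM and 16 with a ratio of 8. Annexin shares in the brain, skin, lung, heart and limb libraries were 1.02%, 1.0%, 0.891%, 1.44% and 0.914% without mitochondrial and haemoglobin genes in the total and 1.05%, 1.03%, 0.92%, 1.47% and 0.951% with named genes only, in the same order of libraries. Rescaling by the median ratio shifted libraries by -0.14 (lung label) to 0.06 (heart label) on the log2 scale. The cause of these changes was not tested beyond what each setting changes by construction. No paired analysis was possible because each label has 1 library. An absence is least informative for the low members, since of genes with a median of 1 to 10 FPKM in the other 4 libraries, 37.2% to 59.0% were listed at 0 in a library.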

Other observations

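Genes next to the annexins on the chromosome, by the gene order of RefSeq (ARS-UCD2.0), were looked up after the annexin values were seen. Of the 16 nearest protein-coding neighbours of the 8 members, 15 matched an entry, 4 reached 10 FPKM in at least 1 library and 1 (AAK1, a clathrin adaptor kinase beside ANXA4) was above 0 in all 5, at 0.72 to 1.27 FPKM. For scale, 7497 of the 27607 genes had a value of 10 FPKM or higher somewhere, and 2607 had no value of 0. Low or absent values were thus common among all genes, so these counts are no result about the neighbours. ICE2 and FOXB1, which flank ANXA2, were at 0 to 8.27 FPKM and at 0. ALDH1A1, a retinaldehyde dehydrogenase beside ANXA1, stood at 268 FPKM in brain, 317 in skin, 2.34 in lung, 0 in heart and 3075 in limb, an order unlike that of ANXA1. RORB, on the other side of ANXA1, was above 0 only in skin, at 9.79 FPKM. BMP2K, beside ANXA3, was at 7.99 to 35.9 FPKM in 4 libraries and at 0 in lung.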
